A study of Drosophila melanogaster with 4 samples.

Results

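Genes of fatty acid handling, namely Acox3, Acadvl, AcCoAS, Acsf2 and apolpp, were followed across 4 control microarrays of fly heads. They were chosen by their current gene symbols and were carried by 6 of the 4208 clones, and made up 5 of the 2406 genes, with values on at least 3 arrays. Each array was a two-colour cDNA slide on which a Cy5-labelled pool of heads was hybridized with a Cy3-labelled pool, both from untreated Oregon-R wild type flies. The arrays formed 1 group, called NM-NM in the labels and NF-NF (normal food) in the study, with replicates 1 to 4. All flies were unmated males, 3 to 4 days old, kept on normal food with 30 flies per vial, and no drug or allele separated the pools. By the methods, the heads pooled for each RNA sample came from more than 1 vial. By the labels, both pools were kept for 12 h in the treatment vessel on replicates 2 to 4, whereas on replicate 1 the Cy5 pool is labelled with 12 h and the Cy3 pool with 6 h. The study instead places its NF-NF control at the start of its time series, before its 12 h point. RNA came from pooled whole heads, so that no value belongs to 1 fly or 1 cell type, and fewer cells of a type cannot be told apart from less RNA per cell. The question was how far fatty acid oxidation, acyl-CoA synthesis and lipid transport genes depart from equality between untreated pools, and whether they depart differently.

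Before a fatty acid can be burned or stored, an acyl-CoA synthetase joins it to coenzyme A. Acyl-CoA dehydrogenases in mitochondria and acyl-CoA oxidases in peroxisomes then carry out the first step of beta-oxidation, the oxidases passing electrons to oxygen and releasing hydrogen peroxide. Lipids travel between fly organs in the hemolymph on lipophorin, a lipoprotein made mainly by the fat body and built on the apolipophorin protein encoded by apolpp. Fat body tissue lies in the head capsule around the brain, and glia of the brain also handle lipids.

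Values below are log2 ratios of the Cy5 over the Cy3 signal minus the array's median over the tested clones, called centred log2 ratios, so that a value of 0 is the median clone of that array. The medians subtracted were 0.14, 0.0005, 0.08 and -0.70 on replicates 1 to 4. Values were deposited for 8429, 8414, 7966 and 2240 of 27648 spots, and replicate 4 therefore stood apart both in its median and in its number of spots. The SD over clones was between 0.23 and 0.38 on the 4 arrays. Replicates 1 and 3 correlated with r = 0.714 across clones, while replicate 4 correlated with them with r = -0.01 and 0.01. Replicate 2 correlated with replicates 1, 3 and 4 with r = 0.430, 0.355 and 0.352. By the labels every array had the same dye orientation, but by the methods of the study 2 of the 4 slides of each condition were dye-swapped. It is not stated in the sources used here if any deposited ratio was turned, and a positive value means only a higher signal in the pool labelled as Cy5.

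Acox3, which encodes a peroxisomal acyl-CoA oxidase and lies on chromosome arm 2L, was the highest of the 5 genes. Its centred log2 ratio was 0.40 on replicate 1, 0.0035 on replicate 2 and 0.64 on replicate 3, and it had no value on replicate 4. It was thus above the array median on replicates 1 and 3, at percentiles 93.7 and 98.7 of clones, and in the middle of the clones on replicate 2, at percentile 50.8. The mean was 0.35 ± 0.32 (SD, n = 3), a 1.27-fold ratio of the pools, with a 95% confidence interval from limma of 0.04 to 0.66. It did not pass the limma test over all clones (adjusted p = 0.138, unadjusted p = 0.0336). The duplicate spots of its clone differed by 0.07 and 0.04 on replicates 1 and 3, less than the values themselves, but by 0.24 on replicate 2. The median of the 49 neighbouring spots in the table was also above the array median there, at 0.19 on replicate 1 and 0.21 on replicate 3. Once that median was subtracted in place of the array's, Acox3 was at 0.21, -0.04 and 0.43, with a mean of 0.20 ± 0.24 (SD, n = 3). With replicate 3 turned, alone or together with replicate 4, the mean of Acox3 was -0.079, with replicates 2 and 3 turned it was -0.082, and with replicates 2 and 4 turned it was 0.35.

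Acadvl, which encodes a very long-chain acyl-CoA dehydrogenase of mitochondria and lies on arm 2R, did not depart from the median in one direction. It was at -0.14 on replicate 1, 0.17 on replicate 2 and -0.38 on replicate 3, with no value on replicate 4. The mean was -0.12 ± 0.27 (SD, n = 3), and the limma adjusted p was 0.536. Acadvl was low where Acox3 was high, on replicates 1 and 3, and was the higher of the pair on replicate 2.

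AcCoAS, the acetyl-CoA synthetase that makes acetyl-CoA from acetate, lies on arm 3L and was the only one of the single-clone genes with a value on all 4 arrays. Its centred log2 ratio was 0.05, 0.07, -0.29 and 0.46 on replicates 1 to 4. Replicates 3 and 4 therefore lay on opposite sides, and the mean of 0.07 ± 0.31 (SD, n = 4) was smaller than this spread (limma adjusted p = 0.696). Without replicate 4 the mean was -0.057. As deposited, the value on replicate 4 was -0.23, at percentile 91.8 of that array's clones. The median of the neighbouring spots on replicate 3 was -0.29, as low as AcCoAS itself, and on replicate 4 it was 0.03.

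Acsf2, named for a human acyl-CoA synthetase family member and carried on arm 2L, stayed closest to the array medians among the 4 enzyme genes. It was at 0.02 on replicate 1, -0.20 on replicate 2 and 0.08 on replicate 3. The mean was -0.03 ± 0.15 (SD, n = 3), with a limma adjusted p of 0.838. Its duplicate spots differed by 0.15, 0.15 and 0.17 on these arrays, more than the departures from 0 on replicates 1 and 3. Replicate 2, on which Acsf2 was lowest, was also the array with the smallest spread of all clones.

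The lipophorin gene apolpp, on chromosome 4, was spotted as 2 different clones. The first was at -0.42 on replicate 1, 0.11 on replicate 2 and -0.11 on replicate 3, with a mean of -0.14 ± 0.27 (SD, n = 3). The second was at 0.05, 0.15, -0.01 and -0.17 on replicates 1 to 4, and its mean was 0.0037 ± 0.13 (SD, n = 4). The clones disagreed most on replicate 1, where the second was higher by 0.47, against 0.04 and 0.10 on replicates 2 and 3. That mean difference of 0.20 ± 0.23 (SD, n = 3) had the smallest p that 3 arrays allow (exact sign-flip permutation test, two-sided p = 0.25). Neither clone passed the limma test, with adjusted p of 0.445 and 0.981. Averaged over its clones, apolpp was at -0.19, 0.13, -0.06 and -0.17, and its mean was -0.07 ± 0.14 (SD, n = 4).

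**Figure D1:**
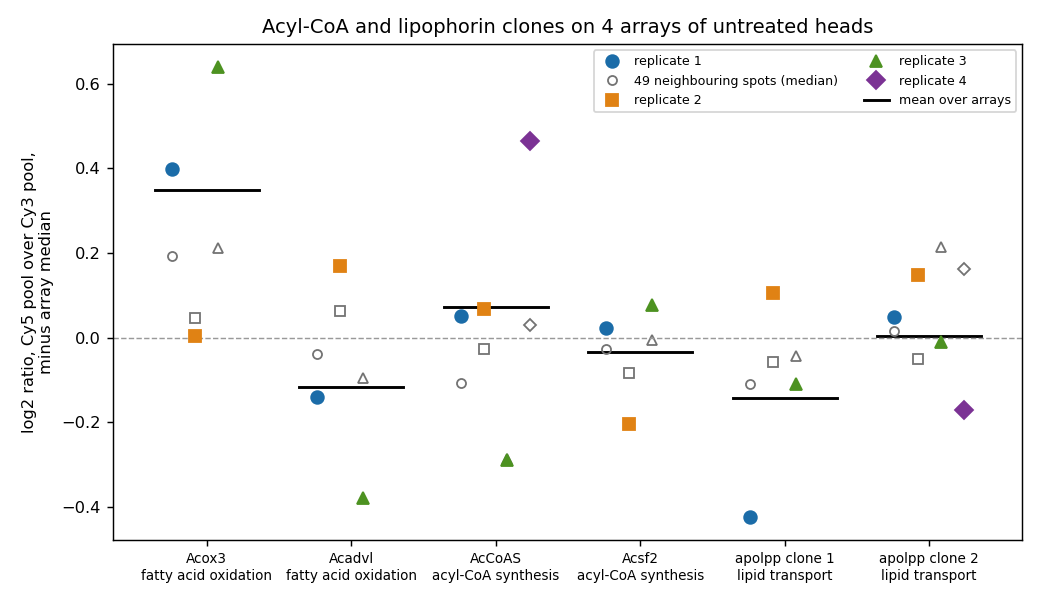
Centred log2 ratios (Cy5 over Cy3, y axis) of the 6 clones of the 5 genes (x axis, with their roles), 1 filled symbol per array and a bar for the mean, with open symbols for the median of the 49 neighbouring spots on the same array. Acox3 is at 0.40 and 0.64 on replicates 1 and 3, AcCoAS lies from -0.29 to 0.46, and the other clones lie between -0.42 and 0.17.

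Taken over the 6 clones, 0 passed the limma test, and so did 0% of the 4208 clones tested, of which 1272 had an unadjusted p under 0.05. Over all clones the limma test made 84 calls without replicate 1 and 380 without replicate 4, and 0 of the 6 clones passed in either. Among the 6, 1 clone, that of Acox3, had an unadjusted p under 0.05, against 30.2% of all clones. A one-class SAM test, rebuilt here on centred clone averages with all 16 sign patterns of the arrays, called 472 clones at a false discovery rate under 5%, and 0 of the 6. The methods name this kind of test, but on normalized spots and with permutations in the authors' own software, so its calls are not those of the study. Acox3 was also the 1 clone of the 6 above the array median on every array with a value, as were 25.3% of all clones, and 0 of the 6 were below it on every array, against 25.1%. The duplicate spots of the 6 clones differed by a median of 0.105 over 20 measurements, with a range of 0.025 to 0.336, and over all clones the median difference was between 0.102 and 0.126 on the arrays.

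The genes differed in how widely they varied about the array medians. The root mean square of the centred log2 ratios was 0.44 for Acox3, 0.25 for Acadvl and 0.13 for Acsf2, against a median of 0.24 over the 1961 genes with values on 3 arrays. These values lay at percentiles 88.4, 54.1 and 16.8 of those genes. It was 0.28 for AcCoAS and 0.15 for apolpp, at percentiles 52.6 and 11.7 of the 445 genes with values on 4 arrays, whose median was 0.27. In the order of their means the genes ran from Acox3 through AcCoAS, Acsf2 and apolpp to Acadvl, and each differed from the next by less than the SD of either. This order sets means over 4 arrays beside means over 3. On replicates 1 to 3 alone AcCoAS was at -0.057, below Acsf2 at -0.035 and apolpp at -0.040.

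Differences between the genes were then taken on each array, which removes what the dyes and the centring give to all clones alike. A dye effect that differs between genes would remain in these differences and was not tested. Acox3 was above Acsf2 on 3 of 3 arrays, by 0.38, 0.21 and 0.56, with a mean of 0.38 ± 0.18 (SD, n = 3). Against Acadvl it was higher by 0.54 and 1.02 on replicates 1 and 3 and lower on replicate 2, at -0.17, with a mean of 0.46 ± 0.60 (SD, n = 3). The mean of Acox3 over AcCoAS was 0.41 ± 0.50 and over apolpp 0.39 ± 0.45, each higher on 2 of 3 arrays. With replicates 3 and 4 turned, Acox3 minus Acadvl, AcCoAS and apolpp was -0.22, -0.21 and -0.079, and Acox3 minus Acsf2 was 0.0065. With the neighbouring spots subtracted, Acox3 minus AcCoAS was 0.12 and Acox3 minus Acsf2 was 0.19. The other 6 pairs had mean differences between -0.08 and 0.15, and in each of them the arrays pointed both ways. The exact sign-flip permutation test gave two-sided p values between 0.25 and 1 over the 10 pairs and an adjusted p of 1 for each. With 3 arrays the test cannot go below 0.25, and with 4 it cannot reach 0.05.

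**Figure D2:**
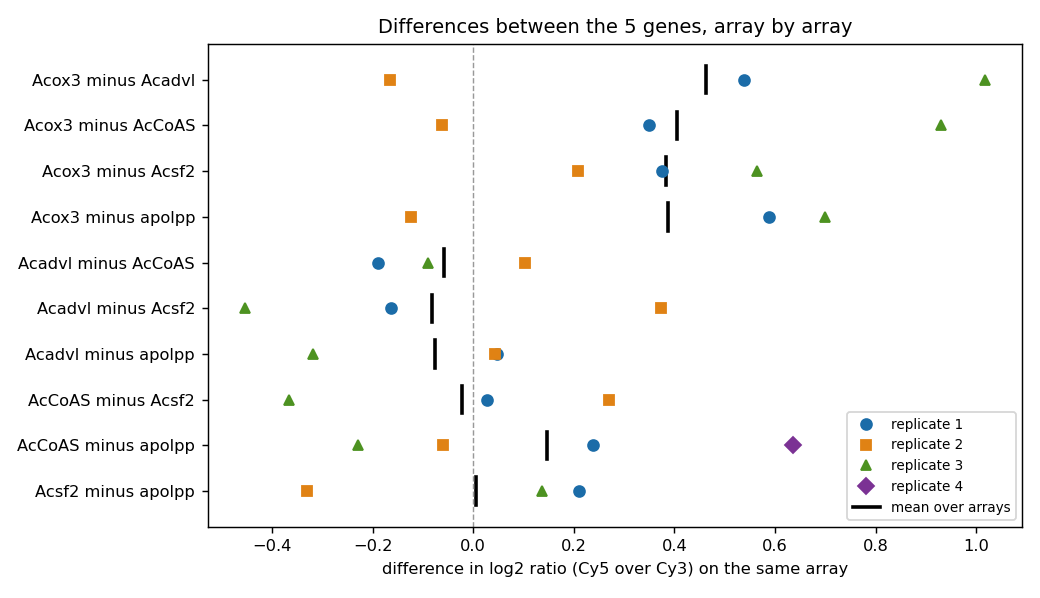
Differences in centred log2 ratio between the 5 genes on the same array (x axis) for the 10 pairs (y axis), 1 symbol per array, with a vertical bar for the mean. The 4 pairs with Acox3 have means from 0.38 to 0.46, and Acox3 minus Acsf2 is above 0 on 3 of 3 arrays, while the other means lie between -0.08 and 0.15.

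By role, the average of Acox3 and Acadvl was 0.13, 0.09 and 0.13 on replicates 1 to 3, which hides their opposite signs on replicates 1 and 3. The average of AcCoAS and Acsf2 was 0.04, -0.07 and -0.11 on the same arrays, and that of apolpp was -0.19, 0.13 and -0.06. No role stood on one side of another on all 3 arrays except fatty acid oxidation over acyl-CoA synthesis.

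The other genes of fatty acid oxidation also lay on both sides of the array medians. Of 24 listed genes of mitochondrial fatty acid oxidation 10 were measured, 3 above and 7 below the array medians on average, with a median of -0.06. Over all genes the median was -0.01, and 48.5% of genes were above. None passed the limma test in either direction (0 of 10, and 0% of the 2406 genes), 2 had an unadjusted p under 0.05, and 30.4% of all genes had one. Genes of the carnitine shuttle, which brings acyl groups into mitochondria, were the lowest of the list. The carnitine palmitoyltransferase gene whd was at -0.67, -0.08 and -0.48 on replicates 1 to 3. Its mean was -0.41 ± 0.30 (SD, n = 3), and the limma adjusted p was 0.108. The carnitine carrier gene colt was at -0.54, 0.06 and -0.36 (limma adjusted p = 0.192). Both were low on the arrays on which Acox3 was high, and 41.7% of genes measured on replicates 1 to 3 were likewise below the median on both replicates 1 and 3.

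Of the later steps of mitochondrial beta-oxidation, the 3-hydroxyacyl-CoA dehydrogenase gene Had1 was the highest, at 0.47, 0.04, 0.49 and 0.09 on replicates 1 to 4 (mean 0.27 ± 0.24, SD, n = 4; limma adjusted p = 0.135). The thiolase gene yip2 was at -0.48, 0.19 and -0.13 on replicates 1 to 3. Apart from these later steps, the listed genes CG4860 and CG6638 of the acyl-CoA dehydrogenase family had means of 0.21 ± 0.20 (SD, n = 3) and 0.18 ± 0.33 (SD, n = 4). Both means were on the other side of 0 from Acadvl. CG4594, CG4598 and scu lay between -0.17 and -0.0053. Acadvl, CG4860 and CG6638 thus spread over both sides of the array medians. Without replicate 1, the array with pools of unequal time, 6 of the 10 genes were above the medians, against 3 with it. The share of all genes above the medians without that array was not computed, and the part of the unequal times was not tested.

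Of 12 listed peroxisomal genes 3 were measured, and 2 of them were above the array medians, with a median of 0.11. Acox3 was the highest of them and CROT, a carnitine octanoyltransferase gene, the lowest, at -0.42, 0.08 and -0.50 on replicates 1 to 3 (mean -0.28 ± 0.31, SD, n = 3; limma adjusted p = 0.198). CROT was thus low on replicates 1 and 3, on which Acox3 was high. CG5065 had a mean of 0.11 ± 0.33 (SD, n = 3). None passed the limma test (0 of 3, and 0% of all genes). Without replicate 1 the list had 1 gene above and 2 below, again with no share over all genes computed.

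Of 22 acyl-CoA synthetase and fatty acid transport protein genes 8 were measured, 4 above and 4 below the array medians, with a median of 0.02. Of these 8, 0 passed the limma test, as did 0% of all genes. An unadjusted p under 0.05 was found for 4 of them, and for 30.4% of all genes. AcCoAS and Acsf2 stood in the middle of this list. Fatp3, a fatty acid transport protein gene, was the highest, at 0.33, 0.12 and 0.56 on replicates 1 to 3 (mean 0.33 ± 0.22, SD, n = 3; limma adjusted p = 0.120). The lowest was pdgy, an acyl-CoA synthetase gene, at -0.53, -0.48 and -0.58 on replicates 1 to 3 and 0.20 on replicate 4 (mean -0.35 ± 0.37, SD, n = 4; limma adjusted p = 0.137). The very long-chain acyl-CoA synthetase gene bgm was below the median on 3 of 3 arrays, at -0.38, -0.25 and -0.27, with a limma adjusted p of 0.104. Acsx3 was also below on 3 of 3, with a mean of -0.27 ± 0.17 (SD, n = 3), whereas 25.7% of all genes were below on every array with a value. The mean of CG6178 was 0.12 ± 0.23 and that of CG4830 0.10 ± 0.24 (SD, n = 4 each).

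**Figure D3:**
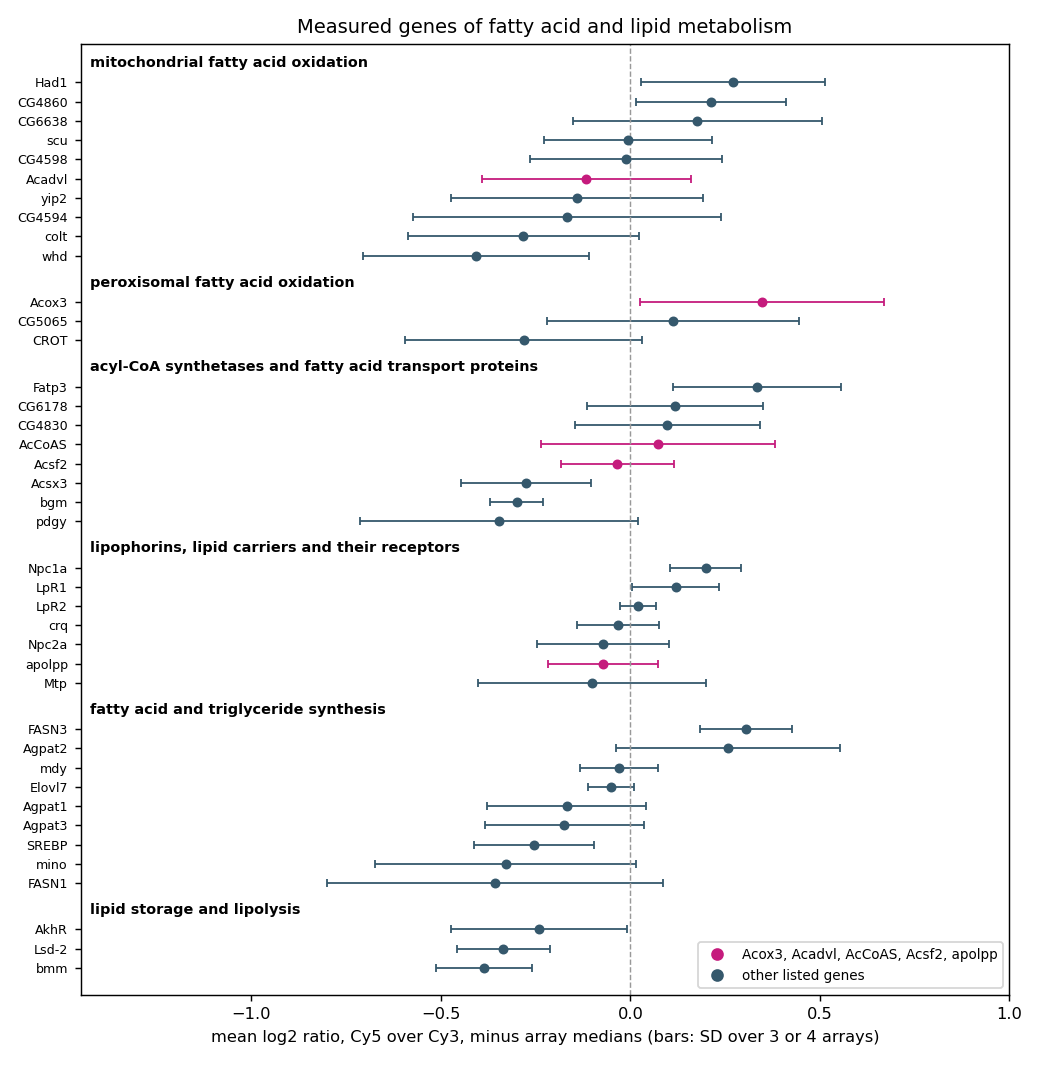
Mean centred log2 ratio (x axis, bars for the SD over 3 or 4 arrays) of each measured gene (y axis) in 6 lists of fatty acid and lipid genes. Acox3 and Acadvl lie on opposite sides of 0, whd is the lowest gene at -0.41, and the genes of the lipophorin list lie between -0.10 and 0.20.

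Around apolpp, 7 of 17 listed lipophorin, lipid carrier and receptor genes were measured, 3 above and 4 below the array medians, with a median of -0.03. Of these 7, 0 passed the limma test, as did 0% of all genes. Mtp, the microsomal triglyceride transfer protein gene whose product loads lipid onto apolipophorin, was the lowest, at -0.34, 0.23 and -0.19 on replicates 1 to 3 (mean -0.10 ± 0.30, SD, n = 3). Its signs on these arrays were those of apolpp averaged over its clones, with larger departures. On replicate 1, however, the second apolpp clone was on the other side, at 0.05. The lipophorin receptor genes LpR1 and LpR2, each with 2 clones, had means of 0.12 ± 0.12 (SD, n = 4) and 0.02 ± 0.05 (SD, n = 3). Npc1a, which moves sterols out of endosomes, was the highest, at 0.15, 0.10, 0.24 and 0.31 on replicates 1 to 4 (mean 0.20 ± 0.09, SD, n = 4; limma adjusted p = 0.139), and it was above the median on 4 of 4 arrays. Of all clones, with 3 or 4 values each, 25.3% were above on every array with a value. The share among genes with 4 values alone was not computed. Npc2a was at -0.07 ± 0.17 (SD, n = 3) and the scavenger receptor gene crq at -0.03 ± 0.11 (SD, n = 4). Without replicate 1, 5 of the 7 genes were above the medians, and the share over all genes without that array was not computed.

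Of 15 listed fat body markers 5 were measured, 3 of them above the array medians. The median of the list was 0.05. The yolk protein genes Yp3 and Yp2, known for their expression in the female fat body although the pools were labelled as male, were highest, with means of 1.31 ± 0.72 (SD, n = 4) and 0.52 ± 0.32 (SD, n = 3). Yp3 was at 1.49, 0.34, 1.31 and 2.08 on the 4 arrays and Yp2 at 0.89, 0.30 and 0.36 on the first 3. The larval serum protein gene Lsp2 was at 0.05 ± 0.09 and tobi at -0.07 ± 0.15 (SD, n = 3 each), as near to the medians as apolpp. The high values of this list were thus those of the 2 yolk protein genes. The part of fat body RNA in the apolpp values was not tested. In the other marker lists the medians were 0.12 for 2 oenocyte genes, -0.22 for 5 neuronal genes, -0.26 for 3 glial genes, -0.01 for 4 photoreceptor genes, -0.08 for 5 muscle genes and 0.38 for 2 gut genes. Their extreme genes were CG18609 (0.18) and CG17562 (0.05), nSyb (0.22) and Rab3 (-0.48), alrm (-0.12) and Eaat2 (-0.33), inaD (0.24) and inaC (-0.11), TpnC4 (0.21) and flw (-0.11), and Mal-A2 (0.47) and Mal-A3 (0.30). All 5 neuronal markers that were spotted had values, which is all that ratios can say of the labelled head tissue. The 2 measured of 12 listed gut genes averaged 0.51, 0.13 and 0.51 on the first 3 arrays. The 3 measured of 9 listed glial genes averaged -0.50, -0.00033, -0.32 and -0.06 over the 4 arrays. Both lists thus departed most on replicates 1 and 3, the arrays on which Acox3 was high and whd low, and their part in these values was not tested. Over all clones the SD was also larger on replicates 1 and 3, at 0.34 and 0.38, than on replicate 2, at 0.23, and it was 0.37 on replicate 4.

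Replicates 1 and 3 were then set against each other for the lipid genes. Acox3, Fatp3 and Had1 lay high on both arrays, and whd, colt, CROT, bmm and FASN1 low on both. Apart from colt, these were the highest or lowest of their lists by means that include these arrays. Other listed lipid genes, such as CG4594 and CG4598, changed side between the arrays. Of all genes measured on replicates 1 to 3, 41.7% were below the median on both replicates 1 and 3. Acadvl was below the median on both, at -0.14 and -0.38, and Acsf2 was above on both, at 0.02 and 0.08. The average of the apolpp clones was also below on both, at -0.19 and -0.06, although the second clone was at 0.05 and -0.01. With apolpp taken as this average, AcCoAS alone of the 5 genes changed side, at 0.05 on replicate 1 and -0.29 on replicate 3. Across the 2287 genes with values on both arrays r was 0.737, over genes that share the same slides and are not independent replicates.

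**Figure D4:**
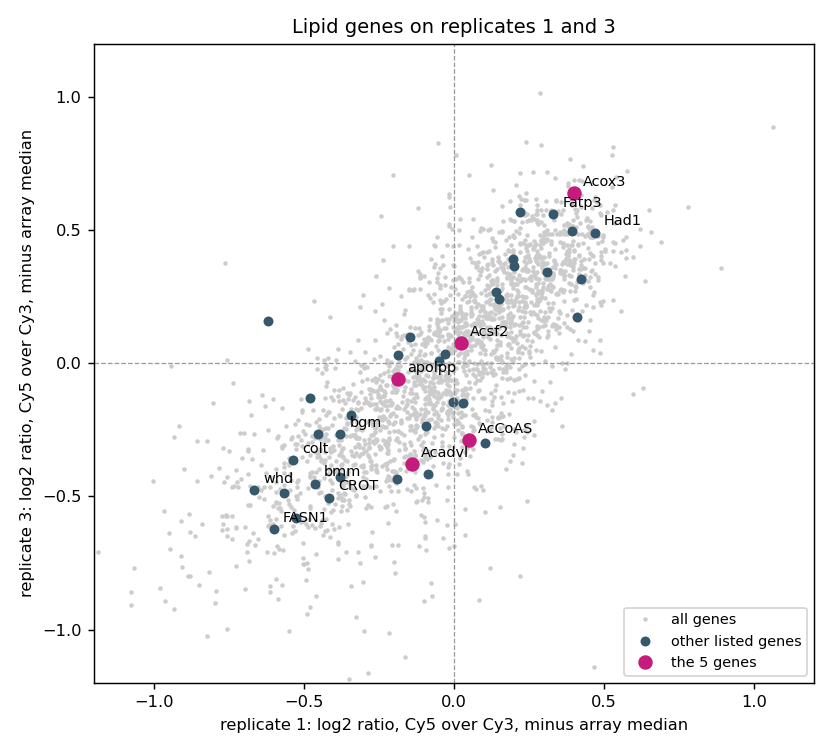
Centred log2 ratios (Cy5 over Cy3) of genes on replicate 1 (x axis) and replicate 3 (y axis), with all genes in grey, listed lipid genes in dark blue and the 5 genes in magenta. Acox3 is at 0.40 and 0.64, Acadvl at -0.14 and -0.38, and 22 of 2287 genes lie outside the axes.

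The genes with the most similar values were sought by the root mean square difference of centred log2 ratios. For Acox3 these were Rtel1, unc-4 and Pk34A, with differences of 0.02, 0.03 and 0.03 over 3 arrays. Of 2280 genes, 48 lay within 0.1 of Acox3. For Acadvl they were CG14292, Dic3 and CG18809 (0.03, 0.03 and 0.04), with 49 genes within 0.1, and for Acsf2 PAN3, CG7246 and Ilp2 (0.03 each), with 94. On 4 arrays matches were fewer. CG7384 was nearest to AcCoAS at 0.09, followed by Trp1 and TM4SF at 0.15 and 0.16, and Spn38F was nearest to apolpp at 0.09, followed by Cyp12a4 and l(2)SH0834 at 0.10 each. Only 1 of 444 genes was within 0.1 of AcCoAS and 1 of apolpp.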

How the data were processed

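RNA of pooled fly heads was measured on 4 two-colour cDNA arrays. Slides were quantified by the authors in GenePix Pro 6.0, and ratios were normalized per slide in Acuity 4.0, ignoring spots under 100 units and near background, and kept spots with under 3% saturated pixels, a regression R2 of at least 0.6 and a signal-to-noise ratio of 3 or more. The values deposited by the authors were log2 ratios of Cy5 over Cy3. Scanner intensities were not used here. The number of arrays limits the precision, as do the spread of duplicate spots and the few values on replicate 4.

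Each of 13824 adjacent pairs of spots was averaged into 1 clone, and clones with values on at least 3 arrays were kept. The median of each array over these clones was subtracted. Names came from the platform annotation, updated by Entrez identifier through a RefSeq table of Release 6 (97.9% of 15218 annotated probes). Clones of a gene were averaged for gene values. Each clone, and for the lists each gene, was tested against 0 with limma 3.58.1 in R 4.3.3, two-sided, with Benjamini-Hochberg adjustment over all clones or genes at 0.05. On simulated data of 4208 clones it called 32.8% of the clones that were changed by 0.5 in log2 and 100% of those changed by 1. The simulated arrays were independent, with the same spread for all clones of an array, whereas measured replicates 1 and 3 correlated with r = 0.714. These shares therefore cannot be carried over to the measured arrays. There Yp3, with a mean of 1.31, was not called (limma adjusted p = 0.0648 over genes). Differences between genes were tested by an exact sign-flip permutation test over arrays. One-class SAM used all 16 sign patterns of the arrays. The p-values set each mean against its spread between these arrays, which limma moderates over all clones or genes tested. A dye effect of a gene that is shared by the arrays would enter them and was not tested. The alternatives were values as deposited, subtraction of the median of the 49 nearest spots with a value, pairs with both spots, turned arrays, left-out arrays, other array minimums and gene averages. The 5 genes, the lists and the tests were chosen with earlier results of these data known. Named genes were the 5, the 3 nearest in pattern to each, the measured genes of the lipid lists and the highest and lowest gene of each marker list. Lists without replicate 4 or 1 or without the 5 genes were added after seeing the data, as were the other array minimums for the 6 clones.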

Additional observations from a re-analysis of the deposited data

Results flagged for a closer look

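Of 21 sets of 4 values examined, 3 held 1 value far from the other 3, where chance gives about 1 in 20 for independent sets. On replicate 4, the second clone of apolpp was at -0.87 as deposited, against 0.07 to 0.19 on the other arrays, and at -0.17 once the array median was subtracted. Replicate 4 itself had 2240 spots with a value, against 7966 to 8429 on the other arrays. The acyl-CoA synthetase gene pdgy was at 0.20 on replicate 4, against -0.58 to -0.48 on the other arrays, all centred.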

How the results depend on the processing

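Of the 6 clones 0 passed the limma test under the alternatives run, of which a minimum of 4 arrays left only AcCoAS and the second apolpp clone. The number of clones called was 0 in limma, 2 after subtraction of the neighbouring spots, 1 with values on 2 or more arrays and 472 with SAM. Leaving out 1 array gave 0 to 380 calls, namely 84 without replicate 1, 380 without replicate 4 and 0 without replicate 2 or 3, and the cause was not tested. Of 244 alternative values of clones and pairs, 63 changed sign and 181 kept it, 77 of them with a change in size of over 1.5 times. Leaving out 1 array gave means between 0.20 and 0.52 for Acox3, -0.26 and 0.015 for Acadvl, -0.057 and 0.19 for AcCoAS, -0.090 and 0.050 for Acsf2, -0.27 and -0.0020 for the first apolpp clone and -0.045 and 0.062 for the second. Acox3 minus each of the other 4 genes lay between 0.14 and 0.78 with 1 array left out. Acox3 had no value on replicate 4, so leaving that array out changed nothing in these differences. Every other choice kept replicate 1 or 3, on which Acox3 was high, so the sign gives no separate support. Among the other pairs, Acadvl minus AcCoAS lay between -0.14 and 0.0073, Acadvl minus Acsf2 between -0.31 and 0.11, Acadvl minus apolpp between -0.14 and 0.046, AcCoAS minus Acsf2 between -0.17 and 0.15, AcCoAS minus apolpp between -0.017 and 0.27, and Acsf2 minus apolpp between -0.097 and 0.17. As deposited, AcCoAS was at -0.046, Acsf2 at 0.039 and the second apolpp clone at -0.12. With neighbouring spots subtracted, Acsf2 was at 0.0040, the second apolpp clone at -0.082 and AcCoAS minus Acsf2 at 0.079. Averaging the apolpp clones gave -0.073.

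Dye swaps could require arrays to be turned, and signs then changed by construction. With replicate 3 turned, alone or with replicate 4, Acox3 was at -0.079 and Acadvl at 0.14. Acox3 minus Acadvl, AcCoAS and apolpp was then -0.22, -0.21 and -0.079, Acadvl minus AcCoAS, Acsf2 and apolpp was 0.00083, 0.22 and 0.14, AcCoAS minus Acsf2 was 0.22 and Acsf2 minus apolpp was -0.085. With replicates 3 and 4 turned, AcCoAS was also at -0.014 and AcCoAS minus apolpp at -0.057. With replicates 2 and 3 turned, Acox3 was at -0.082, Acadvl at 0.023, Acsf2 at 0.050 and the second apolpp clone at -0.065. Acox3 minus Acadvl, AcCoAS and Acsf2 was then -0.10, -0.17 and -0.13, Acadvl minus apolpp was 0.11 and AcCoAS minus Acsf2 was 0.041. With replicate 4 turned, AcCoAS was at -0.16 and AcCoAS minus apolpp at -0.17, and with replicates 2 and 4 turned they were at -0.19 and -0.14. With replicate 2 turned, Acsf2 was at 0.10, alone or with replicate 4, and the second apolpp clone at -0.071. With replicate 1 turned, the apolpp clones were at 0.14 and -0.020, Acox3 minus apolpp at -0.0034, Acadvl minus AcCoAS and Acsf2 at 0.068 and 0.028, and Acsf2 minus apolpp at -0.14. No paired analysis was possible because there was 1 group.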

Other observations

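Measured genes of lipid storage and lipolysis lay below the array medians, although none passed the limma test. Of 12 listed genes 10 matched a symbol and 3 were measured, and 3 of 3 were below on every array with a value, as were 25.7% of all genes. The triglyceride lipase gene bmm was at -0.46, -0.24 and -0.45 on replicates 1 to 3 (mean -0.39 ± 0.13, SD, n = 3; limma adjusted p = 0.0829). Lsd-2, a perilipin of lipid droplets, was at -0.38, -0.20 and -0.43 (limma adjusted p = 0.100), and the adipokinetic hormone receptor gene AkhR had a mean of -0.24 ± 0.23 (SD, n = 3). The median of the list was -0.33, against -0.01 over all genes.

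Of 20 genes of fatty acid and triglyceride synthesis 9 were measured, 2 above and 7 below the array medians, with a median of -0.17. The fatty acid synthase genes FASN1 and FASN3 were the extremes, at -0.36 ± 0.44 and 0.31 ± 0.12 (SD, n = 3 each). FASN1 was at -0.60, 0.16 and -0.62 on replicates 1 to 3 and FASN3 at 0.42, 0.18 and 0.32. The glycerol-3-phosphate acyltransferase gene mino was at -0.33 ± 0.35 and SREBP, which encodes a regulator of lipid synthesis genes, at -0.25 ± 0.16 (SD, n = 3 each). Of these 9 genes 0 passed the limma test, as did 0% of all genes, and 2 had an unadjusted p under 0.05, against 30.4% of all genes.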
